A study of Arabidopsis thaliana with 24 samples.

Results

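The WRKY transcription factors were followed in 24 RNA-Seq libraries of *Arabidopsis thaliana* rosettes. The set is a list of 43 gene identifiers out of 37813 in the count table, in 7 subgroups that are defined by the protein. Of these, 41 genes had at least 5 reads in at least 6 of the 24 libraries and were tested together with all 20094 protein-coding genes that passed this limit. The list is not the whole family: the table holds another 29 genes annotated as WRKY, of which 19 passed the same limit, and they are counted separately.

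The study asked how the transcriptome of phototropin mutants differs from that of the wild type, before and after photooxidative stress caused by UV-C. It compared the wild type (WT, Col-0 gl1), the single mutants *phot1* and *phot2*, each without one of the blue-light receptors called phototropins, and the double mutant *phot1phot2*. Plants were left non-treated or received 100 mJ per cm2 of UV-C radiation and were sampled 30 min later. Each of the 8 groups had 3 biological replicates made from at least 4 pooled whole rosettes. All groups carried the gl1 (glabrous1) mutation, so the control also had no trichomes, and all plants grew in an 8 h photoperiod to an age of 4 weeks by the labels. The methods of the study give a younger age for the sequenced plants. A whole rosette mixes cell types, so fewer cells of a type and less RNA per cell cannot be told apart in these values.

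Per library, 33200727 to 41902444 reads were counted in genes of non-treated plants and 20897905 to 28723145 in those of UV-C-treated plants, with no overlap between treatments. Genes of the chloroplast genome took 0.0140 to 0.0286% of the counts without treatment and 1.58 to 2.34% after UV-C, and the 10 most abundant genes took 7.78 to 8.62% and 14.9 to 18.6%. Every difference between treatments given here moved together with these shifts, and their part in the results was not tested. Leaf genes marked all libraries, with *RBCS1A* at 12015 CPM (read counts per 1000000) or more, whereas the 2 seed storage genes had at most 4 reads. For the markers of leaf, seed, flower and root, CPM were taken over the total reads, and for all other genes they were scaled by TMM. Of the root genes read as markers, *PYK10* was at 270.0 to 486 CPM and *SHR* at 6.79 to 15.2 CPM in all libraries. The flower genes had reads in every library as well, *AP3* at 0.0496 to 0.878 CPM, *PI* at 0.514 to 2.08 CPM and *AG* at 0.248 to 0.924 CPM. The targeted genes were lower in the libraries labelled as their mutants. Without treatment *PHOT1* was at 294 to 329 CPM in WT, 116 to 126 CPM in *phot1* and 109.8 to 143 CPM in *phot1phot2*, and after UV-C at 218 to 258, 120.4 to 132 and 163 to 175 CPM. *PHOT2* was at 425 to 435 CPM in WT, 248 to 273 CPM in *phot2* and 254 to 282 CPM in *phot1phot2*, and after UV-C at 340.0 to 375, 224 to 243 and 220.3 to 253 CPM. No ranges overlapped between these mutants and WT. Reads of both genes remained in their mutants.

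WRKY proteins bind DNA through a domain with a conserved heptad, WRKYGQK, followed by a zinc finger, and they recognize the W box, a short promoter element with the core TTGAC. Many of them act in plant immunity, in the balance of salicylic acid and jasmonic acid signaling, in leaf senescence, and in the response to abiotic stress. Mitogen-activated protein kinases (MPKs) phosphorylate some of them, VQ-motif proteins bind others, and many WRKY promoters carry W boxes themselves.

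The coding sequences of the reference genome (RefSeq, TAIR10.1, whose nuclear coordinates match those of the count table for all 43 genes) show how the subgroups differ. A heptad was found in all 43 members, 2 of them in each of the 8 members of subgroup I and 1 in each of the other 35. The heptad read WRKYGKK in *WRKY50* and *WRKY51* of subgroup IIc and WRKYGQK in the other 41. The codons of the heptad are printed 5′ to 3′ for a UV-C-responsive gene of each kind and for *WRKY50*, with the codon of the sixth residue in capitals, because it is the only position at which the heptads differ.
WRKY33 (chr2:16109982-16110002, plus strand): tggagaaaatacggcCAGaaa
WRKY40 (chr1:30384789-30384809, plus strand): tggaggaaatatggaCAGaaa
WRKY51 (chr5:25908864-25908884, plus strand): tggaggaagtatggcAAGaaa
WRKY50 (chr5:9147579-9147599, minus strand): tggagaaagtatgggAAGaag
The zinc finger ended in 2 histidines in 34 members and in a histidine and a cysteine (C2HC) in the 9 members of subgroup III. The coding sequence from the heptad to the last zinc ligand is given for *WRKY40* of subgroup IIa and *WRKY70* of subgroup III, the most abundant genes of the set after UV-C, with the codons of the 4 zinc ligands in capitals. Between the 2 cysteines that bind zinc there are 5 residues in WRKY40 and 7 in WRKY70.
WRKY40 (chr1:30384789-30385056, plus strand, intron removed): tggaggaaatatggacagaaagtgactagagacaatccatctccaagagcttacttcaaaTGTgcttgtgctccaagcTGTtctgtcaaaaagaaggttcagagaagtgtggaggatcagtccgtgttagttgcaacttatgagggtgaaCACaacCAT
WRKY70 (chr3:20909430-20909780, minus strand, intron removed): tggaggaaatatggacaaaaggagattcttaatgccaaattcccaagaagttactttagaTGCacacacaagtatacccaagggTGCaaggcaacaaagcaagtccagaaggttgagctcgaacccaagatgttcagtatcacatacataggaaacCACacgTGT

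Without treatment, WRKY transcripts were of low to moderate abundance in WT. Divided by exonic length, *WRKY15* was highest at 29.5 ± 3.53 CPM per kb (SD, n = 3), followed by *WRKY3* at 19.7 ± 1.75 and *WRKY11* at 15.6 ± 3.33 CPM per kb, the last 2 apart by less than the sum of their SDs. *WRKY39* (12.7 CPM per kb), *WRKY1* (12.5), *WRKY7* (11), *WRKY33* (10.7), *WRKY4* (10.2), *WRKY21* (9.49), *WRKY20* (8.07), *WRKY17* (7.29), *WRKY25* (7.28), *WRKY26* (7.23), *WRKY47* (6.64), *WRKY70* (6.03), *WRKY2* (5.53) and *WRKY40* (5.19) came next. Between 1 and 5 CPM per kb were *WRKY22*, *WRKY23*, *WRKY60*, *WRKY6*, *WRKY45*, *WRKY18*, *WRKY28*, *WRKY50*, *WRKY69*, *WRKY53*, *WRKY65*, *WRKY29*, *WRKY48*, *WRKY46* and *WRKY54*, from 4.11 down to 1.14 CPM per kb. Below 1 CPM per kb were *WRKY42*, *WRKY30*, *WRKY75*, *WRKY74*, *WRKY8*, *WRKY55*, *WRKY51*, *WRKY31*, *WRKY62*, *WRKY41* and *WRKY38*, from 0.540 CPM per kb to 0. After UV-C the order was different: *WRKY40* was highest at 147 CPM per kb, followed by *WRKY70* (128), *WRKY46* (90.1 ± 4.19), *WRKY33* (89.5 ± 7.89), *WRKY15* (67.0) and *WRKY18* (57.8). *WRKY46* and *WRKY33* did not differ beyond their spread, and *WRKY46* had been the 31st of the 43 without treatment. The summed level of the 43 genes was 412 to 481 CPM in the 3 non-treated WT libraries and 1234 to 1347 CPM in the 3 treated ones. *WRKY18*, *WRKY33*, *WRKY40*, *WRKY46* and *WRKY70* made up 10.1% ± 4.79 of that sum without treatment and 61.6% ± 1.54 after UV-C (SD, n = 3).

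The comparison of UV-C-treated with non-treated plants asked which WRKY genes responded within 30 min. A gene was called at an adjusted p under 0.01 (quasi-likelihood F-tests of edgeR, Benjamini-Hochberg adjusted over 20094 genes, as for every adjusted p below) and a log2 fold change (log2FC) above 1 in either direction. In WT, 13 of the 41 tested members rose and 1 fell, against 6.88% of all tested genes that rose and 2.35% that fell. In *phot1* 13 members rose and 0 fell (background 6.37% and 2.09%). In *phot2* 14 rose and 1 fell (background 7.9% and 2.34%), and in *phot1phot2* 16 rose and 1 fell (background 7.2% and 3.55%). The counts of WT and *phot2* include *WRKY38*, which passed the count limit through 5 treated libraries and 1 non-treated library. The same 11 genes were called in every genotype: *WRKY18*, *WRKY22*, *WRKY30*, *WRKY33*, *WRKY40*, *WRKY46*, *WRKY48*, *WRKY51*, *WRKY53*, *WRKY54* and *WRKY70*. The share of all tested genes called in every genotype was not computed, so this count is not read as a result about the family. The median log2FC of the members was 0.46 for WT, 0.53 for *phot1*, 0.78 for *phot2* and 0.54 for *phot1phot2*, while that of all tested genes was between −0.00 and 0.01. Of the 19 WRKY genes outside the list, 1 rose in WT (*WRKY44*, log2FC 1.07 (SE 0.18), adjusted p = 4.62e-05), 2 in *phot1*, 4 in *phot2* and 0 in *phot1phot2*. Short genes rose more often than long ones in WT (14.4% of the shortest quartile of genes and 2.75% of the longest). Over the 16465 tested genes with a span inside the range of the members (1171 to 4880 bases), 6.09% rose. Their median span was 2408 bases against 2110 for the 43 members, so lengths were not matched and the part of length was not tested.

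**Figure D1:**
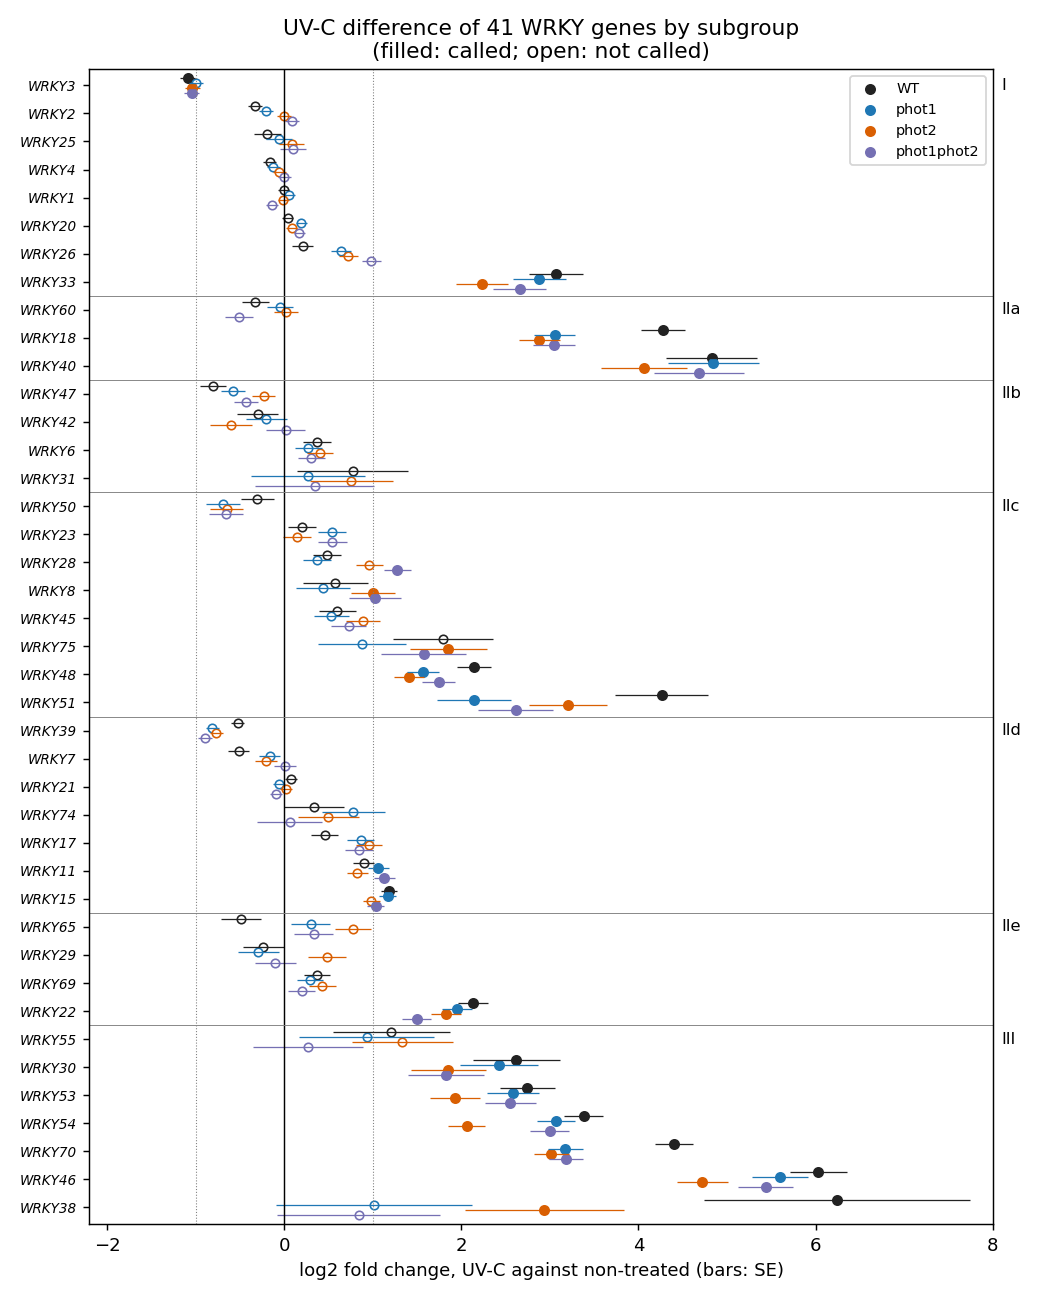
Log2 fold change of UV-C-treated against non-treated plants (horizontal axis) for the 41 tested WRKY genes, grouped by subgroup, in 4 genotypes; bars are SE, filled points were called and open points were not. Subgroups IIa and III hold most of the large rises, with 2 of 3 and 6 of 7 tested members called in WT, and subgroup IIb has 0 of 4. The 6 include *WRKY38*, at 0 CPM in non-treated WT, whose libraries overlapped between treatments. It passed the count limit through 5 treated libraries and 1 non-treated library. *WRKY41* and *WRKY62* of subgroup III were not tested.

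Subgroup IIa holds WRKY18, WRKY40 and WRKY60, related proteins that act together in basal defense and in abscisic acid signaling. *WRKY40* (AT1G80840, chr1:30383561-30385499, plus strand) was at 2.76, 15.8, and 2.03 CPM in the 3 non-treated WT libraries and at 194, 193, and 199 CPM after UV-C (log2FC 4.83 (SE 0.51), adjusted p = 8.16e-08). All treated libraries lay far above all non-treated ones, and replicate 2 of non-treated WT stood apart from the other two. Without this library the log2FC was 6.33. The log2FC was 4.85 in *phot1* (5.48 without non-treated replicate 1), 4.07 in *phot2* and 4.69 in *phot1phot2*, with treated libraries between 157 and 215 CPM. The difference from WT did not pass in *phot2* (interaction log2FC −0.76 (SE 0.65), adjusted p = 0.68) by this test, while edgeR's likelihood ratio test called it. *WRKY18* (AT4G31800, chr4:15382777-15385100, plus strand) went from 6.07, 7.03, and 4.99 CPM to 125, 104, and 123 CPM in WT (log2FC 4.28 (SE 0.25), adjusted p = 5.38e-12). Its log2FC was 3.05 in *phot1*, 2.88 in *phot2* and 3.05 in *phot1phot2*. *WRKY60* was the exception of the subgroup, with 5.35 ± 0.221 CPM before and 4.26 ± 0.338 CPM after UV-C in WT (log2FC −0.33 (SE 0.16), adjusted p = 0.0887), and it was called in none of the 4 genotypes.

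Subgroup III, the members with the C2HC finger, contains several salicylic acid-responsive factors. *WRKY46* (AT2G46400, chr2:19043411-19044955, minus strand), which acts with WRKY70 and WRKY53 in basal resistance to bacteria, had the largest fitted change among the abundant genes. It was at 1.13, 2.61, and 1.9 CPM without treatment and at 126, 115, and 125 CPM after UV-C in WT (log2FC 6.03 (SE 0.33), adjusted p = 2.02e-12), a 65.4-fold difference. Treated and non-treated libraries did not overlap in any genotype. The log2FC was 5.60 in *phot1*, 5.43 in *phot1phot2* and 4.72 in *phot2*, where replicate 3 of the non-treated plants was high (9.56 CPM against 2.99 and 3.14) and the log2FC without it was 5.47. *WRKY70* (AT3G56400, chr3:20908711-20910623, minus strand), a regulator of the balance between salicylic acid and jasmonic acid signaling, went from 8.38, 11.5, and 6.67 CPM to 194, 163, and 206 CPM in WT (log2FC 4.40 (SE 0.21), adjusted p = 3.32e-13). *WRKY54*, its close relative and partner in the control of senescence, went from 1.7, 1.86, and 1.33 CPM to 18.9, 14.6, and 17.7 CPM (log2FC 3.38 (SE 0.21), adjusted p = 2.35e-11), and both rose in all 3 mutants as well. *WRKY53* (AT4G23810, chr4:12392370-12393982, minus strand), a positive regulator of leaf senescence, was at 2.22, 5.47, and 4.53 CPM and then at 25.7, 25.9, and 29.7 CPM (log2FC 2.74 (SE 0.31), adjusted p = 1.94e-07). *WRKY30*, a factor responsive to reactive oxygen species, was at 1.06, 0.497, and 0.488 CPM and then at 3.79, 3.96, and 5.18 CPM (log2FC 2.62 (SE 0.49), adjusted p = 0.000131). Both rose in the mutants, *WRKY53* by log2FC 1.93 to 2.59 and *WRKY30* by 1.83 to 2.42. Single libraries moved these values: *WRKY53* in *phot1phot2* was at 3.15 without non-treated replicate 3, and *WRKY30* at 3.18 in *phot1* without non-treated replicate 2 and at 2.58 in *phot2* without non-treated replicate 3.

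The other members of subgroup III were near the limit of detection. *WRKY38*, a negative regulator of basal defense, had 0, 0 and 0 reads in the non-treated WT libraries and 9, 10 and 0 after UV-C, so that 1 treated library had none and the groups overlapped. Against a floor of 3 reads per library, the mean after UV-C was at least 3.97-fold higher in WT (adjusted p = 0.00186). In *phot2*, with 2, 3 and 1 reads before and 15, 5 and 4 after UV-C, the difference was at least 5.66-fold (adjusted p = 0.009998). The WT call was lost without UV-C replicate 2 (adjusted p = 0.0116). The *phot2* call was lost when any one of the non-treated replicates, or UV-C replicate 1 or 2, was left out (adjusted p 0.0127 to 0.123), and it was not made in *phot1* or *phot1phot2*. *WRKY38* passed the count limit through 5 treated libraries and 1 non-treated library. *WRKY55* was at 0.262 ± 0.0672 CPM before and 0.624 ± 0.358 CPM after UV-C in WT and was not called (log2FC 1.21 (SE 0.66), adjusted p = 0.136). *WRKY41*, with 0 to 12 reads, and *WRKY62*, the close relative of *WRKY38*, with 0 to 10 reads, reached 5 reads in 5 libraries each and were not tested.

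**Figure D2:**
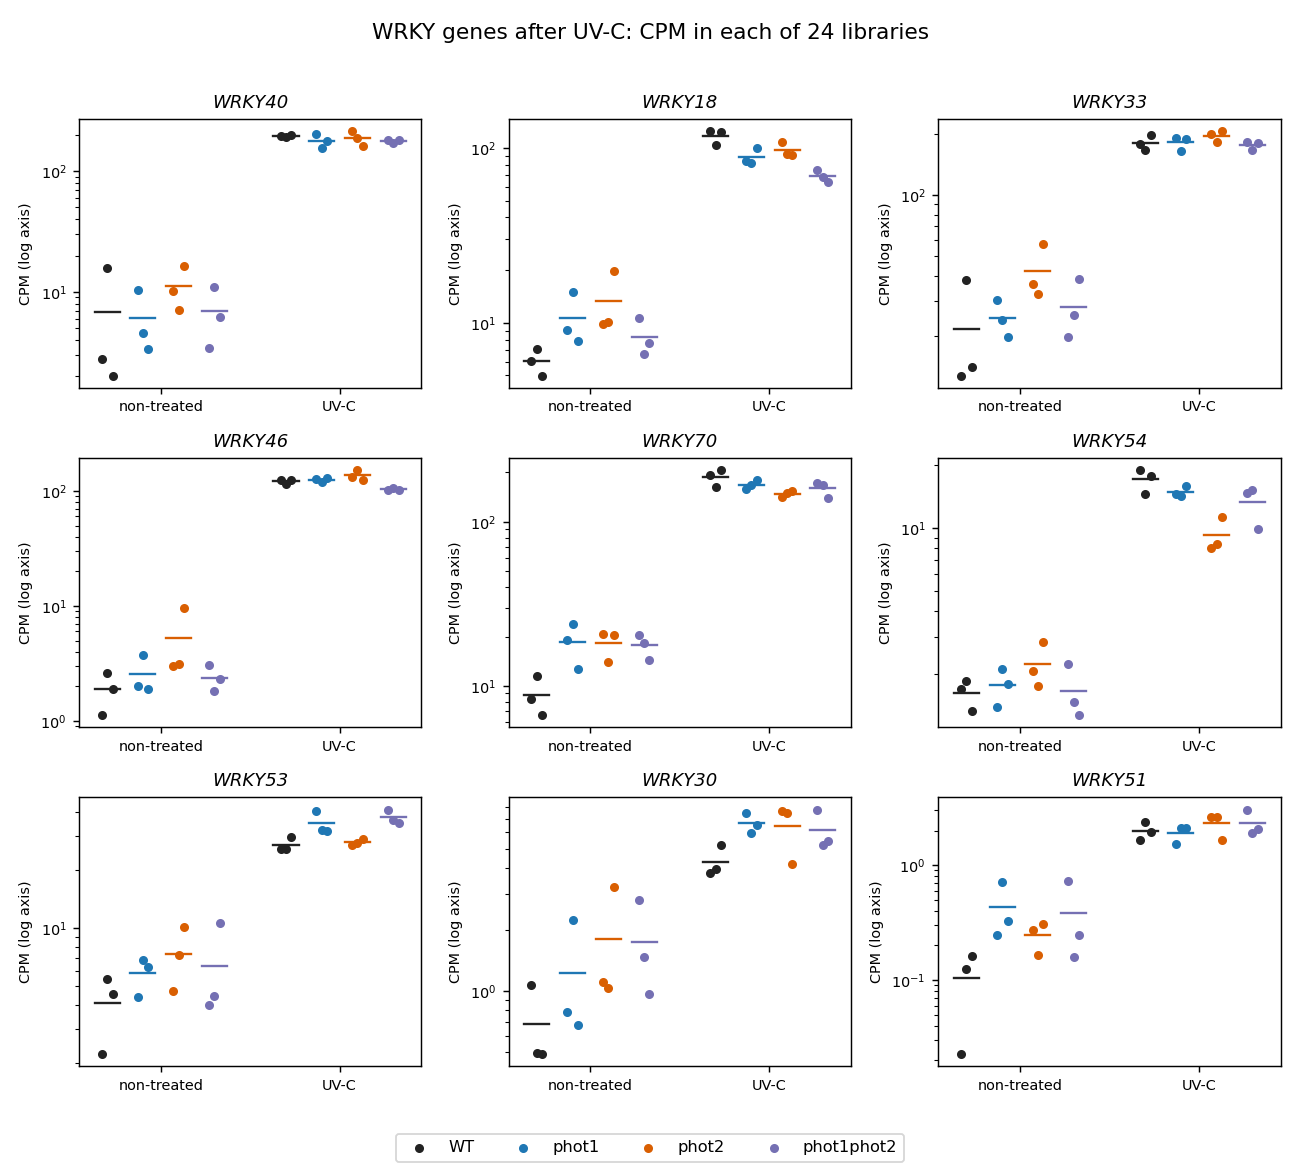
CPM (vertical, log axis) of 9 WRKY genes in each of the 24 libraries, by treatment and genotype; points are libraries and lines are means of 3. In all 9 genes every UV-C library of a genotype lies above every non-treated library of that genotype, and the non-treated libraries spread more widely than the treated ones in *WRKY40* and *WRKY33*.

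In subgroup I, the members with 2 WRKY domains, UV-C moved 1 gene up and 1 gene down in WT. *WRKY33* (AT2G38470, chr2:16108235-16110766, plus strand), a substrate of MPK3 and MPK6 that controls camalexin synthesis and resistance to necrotrophic fungi, was at 12.8, 38.2, and 14.1 CPM without treatment and at 179.8, 167, and 198 CPM after UV-C (log2FC 3.06 (SE 0.31), adjusted p = 3.36e-08). Replicate 2 of non-treated WT was again the high one, and without it the log2FC was 3.75. The log2FC was 2.88 in *phot1*, 2.23 in *phot2* and 2.66 in *phot1phot2*. *WRKY3*, which with WRKY4 acts in resistance to necrotrophic pathogens, was the only member that fell. It went from 45.5, 45.6, and 38.9 CPM to 19.1, 20.5, and 21.4 CPM in WT (log2FC −1.09 (SE 0.08), adjusted p = 5.11e-10), with log2FC −1.04 in *phot2* and −1.04 in *phot1phot2*. In *phot1* its log2FC of −0.99 (adjusted p = 2.47e-09) was just short of the limit on size. *WRKY4*, its relative, was at 26.4 ± 1.4 CPM before and 23.5 ± 1.46 CPM after UV-C and was not called (log2FC −0.17 (SE 0.07), adjusted p = 0.0715). *WRKY1*, *WRKY2*, *WRKY20* and *WRKY25* were not called in any genotype, with log2FC from −0.32 to 0.19, and *WRKY26* is described with the mutants.

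Subgroup IIc had 2 members called in WT, 2 in *phot1*, 4 in *phot2* and 5 in *phot1phot2*. *WRKY51*, one of the 2 genes with the WRKYGKK heptad and, like WRKY50, a mediator of the repression of jasmonic acid responses, was at 0.0226, 0.124, and 0.163 CPM without treatment and 1.64, 2.38, and 1.93 CPM after UV-C in WT (log2FC 4.26 (SE 0.52), adjusted p = 7.31e-07), from 1, 5 and 6 reads to 35, 51 and 35. The other WRKYGKK gene, *WRKY50*, was at 3.11 ± 0.629 and 2.52 ± 0.212 CPM in WT (log2FC −0.30 (SE 0.19), adjusted p = 0.189) and was not called in any genotype. *WRKY48*, a stress-induced repressor of basal resistance, went from 3.03, 3.16, and 2.55 CPM to 12.6, 13.4, and 12.5 CPM (log2FC 2.14 (SE 0.19), adjusted p = 6.98e-09). *WRKY75*, a regulator of phosphate starvation responses and senescence, went from 0.498, 0.348, and 0.136 CPM to 1.36, 1.35, and 0.772 CPM in WT without passing the test (log2FC 1.80 (SE 0.56), adjusted p = 0.0115). It was called in *phot2* (log2FC 1.85 (SE 0.44), adjusted p = 0.00122) and in *phot1phot2* (log2FC 1.58 (SE 0.48), adjusted p = 0.00809). Without UV-C replicate 1, *WRKY75* was no longer called in *phot2* (log2FC 1.31, adjusted p = 0.0219), and in *phot1phot2* the call was lost without non-treated replicate 2 or 3 or UV-C replicate 1 or 2 (adjusted p 0.0216 to 0.0482). Without non-treated replicate 1 the log2FC in *phot1phot2* was 2.35. *WRKY28*, an activator of salicylic acid synthesis, was called in *phot1phot2* only (log2FC 1.28 (SE 0.15), adjusted p = 4.52e-07), and its UV-C log2FC in *phot1phot2* differed from that in WT by 0.79 (adjusted p = 0.0245), which does not pass. *WRKY8* was called at log2FC 1.00 in *phot2* and 1.02 in *phot1phot2*, right next to the size required. In *phot2* it lost the call without non-treated replicate 1 or 2 or UV-C replicate 1 (log2FC 0.85 to 0.97), and in *phot1phot2* without non-treated replicate 1 or 3 or UV-C replicate 1 or 2 (adjusted p 0.0118 to 0.0272). *WRKY23* and *WRKY45*, with log2FC of 0.20 and 0.60 in WT, were not called.

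Subgroup IIe had 1 gene called in every genotype, *WRKY22*, the calls in IId were close to the limit on size, and in IIb none was called. *WRKY15*, a regulator of growth under osmotic and oxidative stress and the most abundant member before treatment, was at 34.1, 42.9, and 36.7 CPM and then at 89.3, 82.4, and 86.5 CPM in WT (log2FC 1.18 (SE 0.09), adjusted p = 7.6e-10). Its log2FC was 1.17 in *phot1*, 1.03 in *phot1phot2* and 0.99 in *phot2*, where it was not called. In *phot1phot2* the call was lost without non-treated replicate 1 (log2FC 0.99). *WRKY11*, which with WRKY17 restrains basal resistance, was called in *phot1* (log2FC 1.06 (SE 0.12), adjusted p = 1.77e-07). It was also called in *phot1phot2* (log2FC 1.13) but not in WT (log2FC 0.90, adjusted p = 1.78e-06). The *phot1* call was lost without UV-C replicate 1 (log2FC 0.90). The difference between mutant and WT was 0.17 for *phot1* (adjusted p = 0.935) and 0.23 for *phot1phot2* (adjusted p = 0.423), neither of which passed. *WRKY39* and *WRKY7* of the same subgroup had lower means after UV-C in WT, at log2FC −0.52 (adjusted p = 3.81e-06) and −0.52 (adjusted p = 0.00145), without reaching the limit on size. *WRKY17*, *WRKY21* and *WRKY74* had log2FC 0.46, 0.07 and 0.34. *WRKY22* of subgroup IIe, which acts downstream of the MPK cascade in flagellin signaling, was at 5.39, 7.33, and 3.63 CPM and then at 22.6, 22.8, and 26.6 CPM (log2FC 2.13 (SE 0.17), adjusted p = 1.06e-09). *WRKY29*, its partner in that cascade, was not called (log2FC −0.23 (SE 0.23), adjusted p = 0.413), nor were *WRKY65* and *WRKY69*. *WRKY6*, *WRKY31*, *WRKY42* and *WRKY47* of subgroup IIb had log2FC between −0.80 and 0.77.

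The levels reached after UV-C were also read in the mutants. *WRKY46* was at 127, 119, and 129 CPM in *phot1*, 133, 151, and 125 CPM in *phot2* and 102, 107, and 102 CPM in *phot1phot2*. *WRKY33* was at 192, 164, and 190.4 CPM, 199.8, 182, and 207 CPM and 182, 166, and 182 CPM in the same order, and *WRKY53* at 40.8, 32.5, and 31.8 CPM, 26.9, 27.8, and 28.9 CPM and 41.3, 36.4, and 35.1 CPM. None of these 3 genes was called in a treated mutant against treated WT, with log2FC from −0.24 to 0.47. *WRKY51* was at 1.51, 2.11, and 2.11 CPM in *phot1*, 2.65, 2.64, and 1.66 CPM in *phot2* and 3.04, 1.9, and 2.08 CPM in *phot1phot2*, and its non-treated level was 0.245, 0.714, and 0.323 CPM, 0.27, 0.164, and 0.306 CPM and 0.734, 0.16, and 0.246 CPM, respectively. Non-treated replicate 1 of *phot1phot2* was high for this gene, and without it the log2FC in *phot1phot2* was 3.49 instead of 2.61. In *phot1* it was 2.74 instead of 2.14 without non-treated replicate 2.

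In all, 23 of the 41 tested members were called in no genotype after UV-C. Of these 23, 11 had an adjusted p under 0.01 in at least 1 genotype and missed the limit on size. Among all 20094 tested genes, 7469 had an adjusted p under 0.01 at any size in WT, and 7068 to 8646 in the mutants. The log2FC of the 23 lay between −0.89 and 1.33. The share of all tested genes called in no genotype was not computed. Nor was the share of these that had an adjusted p under 0.01 in at least 1 genotype. The 23 and the 11 are therefore not read as results about the family. Counting did not use strand, and 9 members overlap a gene on the other strand (*WRKY1*, *WRKY2*, *WRKY4*, *WRKY29*, *WRKY33*, *WRKY40*, *WRKY41*, *WRKY53* and *WRKY69*), so their counts are uncertain.

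Many WRKY promoters contain W boxes, and the upstream sequences were therefore read for the motifs TTGACC and TTGACT on both strands, neighbouring copies of which can share at most 1 base. In the 300 bases before the annotated gene start, 17 of the 41 tested members had at least 1 motif (41.5%), against 32.0% of the 20094 tested genes. In 1000 bases it was 35 of 41 (85.4%) against 67.3%. Of the 13 members that rose in WT, 5 had one within 300 bases (38.5%), and of the other 28 it was 12 (42.9%). The 13 include *WRKY38*, which was near the limit of detection and had 0. *WRKY33* and *WRKY30* had 3 motifs each, and *WRKY46*, with a larger rise than both, had 0 in this window. These promoters are printed for that contrast, 5′ to 3′ on the strand of the gene, with the motif in capitals where it occurs (AGTCAA and GGTCAA are the motif on the opposite strand).
WRKY33 promoter (chr2:16107935-16108234, plus strand): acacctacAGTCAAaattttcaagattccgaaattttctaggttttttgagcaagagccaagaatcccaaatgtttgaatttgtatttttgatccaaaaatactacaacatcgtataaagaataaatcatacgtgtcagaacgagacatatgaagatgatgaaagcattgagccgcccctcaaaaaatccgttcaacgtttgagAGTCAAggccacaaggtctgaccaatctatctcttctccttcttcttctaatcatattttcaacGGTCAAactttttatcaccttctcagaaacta
WRKY30 promoter (chr5:8154711-8155010, minus strand): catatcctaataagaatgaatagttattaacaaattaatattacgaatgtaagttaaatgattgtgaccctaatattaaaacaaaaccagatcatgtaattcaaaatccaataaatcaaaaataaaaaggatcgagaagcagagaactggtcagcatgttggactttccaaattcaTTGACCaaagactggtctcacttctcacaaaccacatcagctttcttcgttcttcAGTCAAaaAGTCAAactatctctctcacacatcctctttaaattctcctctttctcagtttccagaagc
WRKY46 promoter (chr2:19044956-19045255, minus strand): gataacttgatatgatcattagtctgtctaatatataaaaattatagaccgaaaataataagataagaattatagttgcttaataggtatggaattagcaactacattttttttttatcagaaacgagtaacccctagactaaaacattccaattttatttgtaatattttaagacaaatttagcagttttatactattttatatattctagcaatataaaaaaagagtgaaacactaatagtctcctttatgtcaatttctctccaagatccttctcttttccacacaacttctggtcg
The motif nearest to the gene start lay 32 bases upstream in *WRKY33* and 61 bases upstream in *WRKY30*. *WRKY40*, *WRKY18* and *WRKY70* also had 0 motifs in 300 bases. The shorter core TTGAC was not marked, and the printed window of *WRKY46* holds it on the opposite strand, as gtcaa. In 1000 bases, *WRKY46* had 1 motif, *WRKY40* 2, *WRKY18* 3 and *WRKY70* 0, against 4 in *WRKY33* and 3 in *WRKY30*. The core on either strand occurred 4, 7, 3 and 1 times in the same order, against 4 in *WRKY33* and 4 in *WRKY30*. A match is a description of the sequence and not of binding.

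Each mutant was then compared with WT under the same treatment, to ask whether phototropins affect WRKY transcripts in the absence of stress. Without treatment, *phot2* had 4 called members, all higher than in WT, against 0.746% of all tested genes that were higher. *WRKY8* was at 0.967, 1.17, and 1.58 CPM in *phot2* and 0.34, 0.422, and 0.244 CPM in WT (log2FC 1.86 (SE 0.29), adjusted p = 0.000523). *WRKY48* was at 5.47, 6.43, and 10.1 CPM in *phot2* and 3.03, 3.16, and 2.55 CPM in WT (log2FC 1.32 (SE 0.19), adjusted p = 0.00019). The 3 *phot2* libraries were above the 3 WT libraries for both genes. *WRKY18* was at 9.83, 10.1, and 19.9 CPM in *phot2* (log2FC 1.13 (SE 0.25), adjusted p = 0.00781), with replicate 3 well above the others. Without that library the log2FC was 0.72 (adjusted p = 0.0941), and the call was also lost when any one of the WT replicates was left out (adjusted p 0.0158 to 0.0433). *WRKY70* was at 20.8, 14, and 20.3 CPM in *phot2*, against 8.38, 11.5, and 6.67 CPM in WT (log2FC 1.05 (SE 0.20), adjusted p = 0.00295).

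In non-treated *phot1*, *WRKY70* was the only called member (background 0.0796% higher), at 19.1, 24, and 12.6 CPM (log2FC 1.07 (SE 0.20), adjusted p = 0.00696). In *phot1phot2* 0 members were called (background 0.508% higher), although 19 of 41 had an unadjusted p under 0.05, against 29.8% of all tested genes, and the likelihood ratio test called 1 and DESeq2 2. *WRKY70* was at 20.3, 18.4, and 14.3 CPM there and just short of the limit on size (log2FC 0.99 (SE 0.20), adjusted p = 0.0023). In each of the 3 mutants all libraries exceeded the highest WT library for this gene (11.5 CPM). These WRKY70 calls were narrow: the *phot1* call was lost without WT replicate 1 or 3 or *phot1* replicate 1 or 2 (log2FC 0.84 to 1.05, adjusted p 0.0244 to 0.0693), and the *phot2* call without WT replicate 1 or 3 or *phot2* replicate 1 or 3 (log2FC 0.89 to 1.01, adjusted p 0.0146 to 0.0219). The 3 comparisons share the WT libraries and are not independent of each other. When only the 2 groups compared were fitted, 0 of the 4 members in *phot2* and 0 in *phot1* passed (adjusted p for *WRKY70* 0.0335 in *phot2* and 0.1 in *phot1*).

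Whether UV-C changed a gene by a different amount in a mutant than in WT was tested as an interaction. *WRKY70* was the only called member, in *phot2* (log2FC −1.38 (SE 0.27), adjusted p = 0.00511) and in *phot1phot2* (log2FC −1.22 (SE 0.27), adjusted p = 0.00498), where 0.368% and 1.52% of all tested genes were called. Its level after UV-C was 194, 163, and 206 CPM in WT, 141, 150.0, and 155 CPM in *phot2* and 173, 168, and 139.5 CPM in *phot1phot2*. The mutants with the smaller log2FC had the higher level before treatment, and after treatment they were not called different from WT (log2FC −0.34, adjusted p = 0.219, in *phot2*; −0.23, adjusted p = 0.338, in *phot1phot2*). In *phot1*, where 0 members were called (background 0.00498%) 8 of 41 had an unadjusted p under 0.05 (7.37% of all tested genes), and the likelihood ratio test called 2 and DESeq2 0, its difference was of the same size (log2FC −1.23 (SE 0.27), adjusted p = 0.0977) and did not pass. The *phot2* interaction was lost without 8 of the 12 libraries (WT non-treated 1 or 3, WT UV-C 1 or 3, *phot2* non-treated 1 or 3, *phot2* UV-C 1 or 2; adjusted p 0.0134 to 0.0185). The *phot1phot2* interaction was lost without 7 of 12 (WT non-treated 1 or 3, WT UV-C 1 or 3, *phot1phot2* non-treated 1 or 2, *phot1phot2* UV-C 3; adjusted p 0.0118 to 0.0182). The log2FC stayed between −1.62 and −1.06 in all of these fits.

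*WRKY18* had interaction values close to those of *WRKY70*. They were −1.22 for *phot1* (adjusted p = 0.231), −1.39 for *phot2* (adjusted p = 0.0176) and −1.23 for *phot1phot2* (adjusted p = 0.0186), and none passed by this test. The likelihood ratio test of edgeR called *WRKY18* in the interaction of each mutant. Fitting only the groups compared called it in that of *phot1phot2*. After UV-C it was at 83.6, 82.1, and 101 CPM in *phot1*, 107, 92.9, and 91.6 CPM in *phot2* and 74.5, 68, and 64.2 CPM in *phot1phot2*, against 125, 104, and 123 CPM in WT. All *phot1phot2* libraries were below all WT libraries, with log2FC −0.77 (adjusted p = 0.00655) under the limit on size. *WRKY54* had an interaction of −1.32 in *phot2* (adjusted p = 0.0172), which does not pass, and was at 7.99, 8.41, and 11.3 CPM in UV-C-treated *phot2* against 18.9, 14.6, and 17.7 CPM in WT (log2FC −0.88 (SE 0.19), adjusted p = 0.00265). DESeq2 called 3 members in the *phot2* interaction (*WRKY54*, *WRKY65* and *WRKY70*). The likelihood ratio test of edgeR called 6 there (*WRKY18*, *WRKY33*, *WRKY40*, *WRKY54*, *WRKY65* and *WRKY70*).

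**Figure D3:**
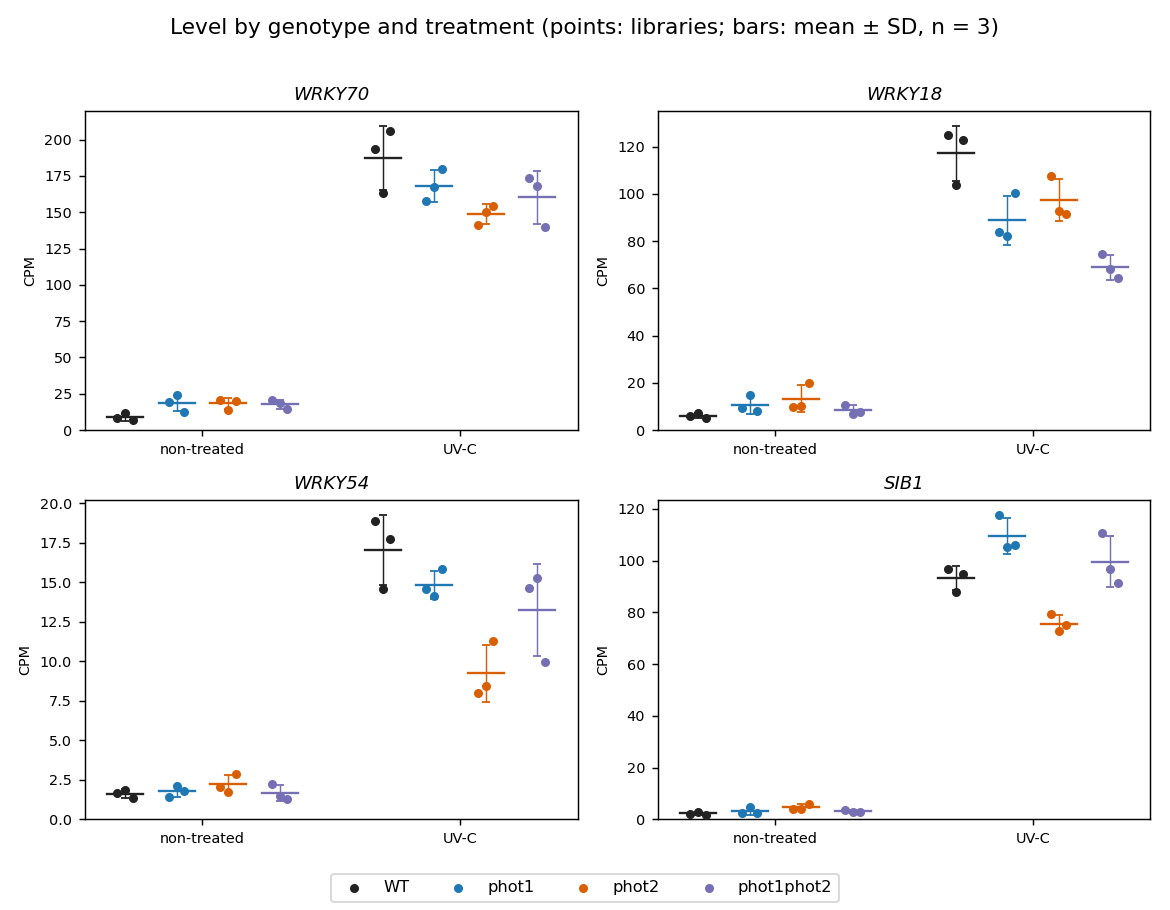
CPM (vertical axis) of *WRKY70*, *WRKY18*, *WRKY54* and the VQ gene *SIB1* in non-treated and UV-C-treated plants of 4 genotypes; points are libraries, bars are mean ± SD (n = 3). Non-treated *WRKY70* is at 6.67 to 11.5 CPM in WT and at 12.6 to 24 CPM in the mutants, whereas the UV-C libraries of all genotypes lie between 139.5 and 206 CPM.

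After UV-C, *phot2* differed from WT in 6 members, all higher (background 1.8% higher). *WRKY8*, a factor of salt tolerance and antiviral defense, was at 3.02, 2.14, and 2.31 CPM in *phot2* and 0.702, 0.513, and 0.276 CPM in WT (log2FC 2.29 (SE 0.31), adjusted p = 2.47e-05). *WRKY65* of subgroup IIe was at 6.46, 6.52, and 4.99 CPM and 2.76, 2.52, and 1.43 CPM (log2FC 1.40 (SE 0.23), adjusted p = 0.000191). *WRKY45*, an activator of the phosphate transporter gene *PHT1;1*, was at 18.4, 13.4, and 12.3 CPM and 6.46, 7.42, and 5.13 CPM (log2FC 1.20 (SE 0.20), adjusted p = 0.000273). For these 3 genes every *phot2* library exceeded every WT library. *WRKY60* was at 7.89, 10.1, and 9.95 CPM in *phot2* and 4.59, 4.29, and 3.91 CPM in WT (log2FC 1.13 (SE 0.16), adjusted p = 3.68e-05). *WRKY26*, which acts with WRKY25 and WRKY33 in thermotolerance, was at 27.4, 25.2, and 27.7 CPM and 12.7, 14.6, and 12.2 CPM (log2FC 1.02 (SE 0.12), adjusted p = 3.59e-06), and *WRKY47* of subgroup IIb at 14.2, 16.1, and 14.4 CPM and 7.44, 6.95, and 7.88 CPM (log2FC 1.01 (SE 0.15), adjusted p = 6.36e-05). Again the libraries did not overlap.

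*WRKY8* was the one member called in *phot2* under both treatments. Against WT, *WRKY8* lost neither of these calls when a library was left out, whereas *WRKY26* lost its call without WT replicate 1 or 3 or *phot2* replicate 3 (log2FC 0.97 to 1.00) and *WRKY47* without WT replicate 2 or *phot2* replicate 2 (log2FC 0.96 and 0.95). Of the genes that rose most after UV-C, none was among the 6: *WRKY40* had log2FC −0.06 and *WRKY46* 0.16 against treated WT. The 6 are not shown to differ by treatment, since none was called in the *phot2* interaction, where DESeq2 and the likelihood ratio test called *WRKY65*. In non-treated *phot2*, 9 of the 41 members had an adjusted p under 0.01 at any size, against 422 of 20094 tested genes.

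In *phot1phot2*, 2 members were called after UV-C, both higher than in WT (background 1.66% higher). *WRKY26* was at 29.5, 23.7, and 28.9 CPM (log2FC 1.05 (SE 0.12), adjusted p = 6.2e-07) and *WRKY8* at 1.21, 1.35, and 1.08 CPM (log2FC 1.25 (SE 0.33), adjusted p = 0.00525). The call of *WRKY26* was lost without *phot1phot2* replicate 1 (log2FC 1.00) and that of *WRKY8* without WT replicate 2 or 3 or *phot1phot2* replicate 1 or 2 (adjusted p 0.0143 to 0.0315). In *phot1* 0 members were called (background 0.0348% higher) by edgeR's quasi-likelihood test, its likelihood ratio test or DESeq2, and 10 of 41 had an unadjusted p under 0.05, against 16.2% of all tested genes. *WRKY26* was at 20.8, 19.3, and 18 CPM there (log2FC 0.55 (SE 0.12), adjusted p = 0.0193), between WT and the other mutants. These 3 comparisons again share the treated WT libraries. The UV-C log2FC of *WRKY26* in *phot1phot2* exceeded that in WT by 0.78 (adjusted p = 0.00307), which is under the limit on size. Of the 19 WRKY genes outside the list, 5 were higher in treated *phot2* (*WRKY36*, *WRKY58*, *WRKY61*, *WRKY71* and *WRKY72*) and 2 in treated *phot1phot2* (*WRKY58* and *WRKY71*).

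**Figure D4:**
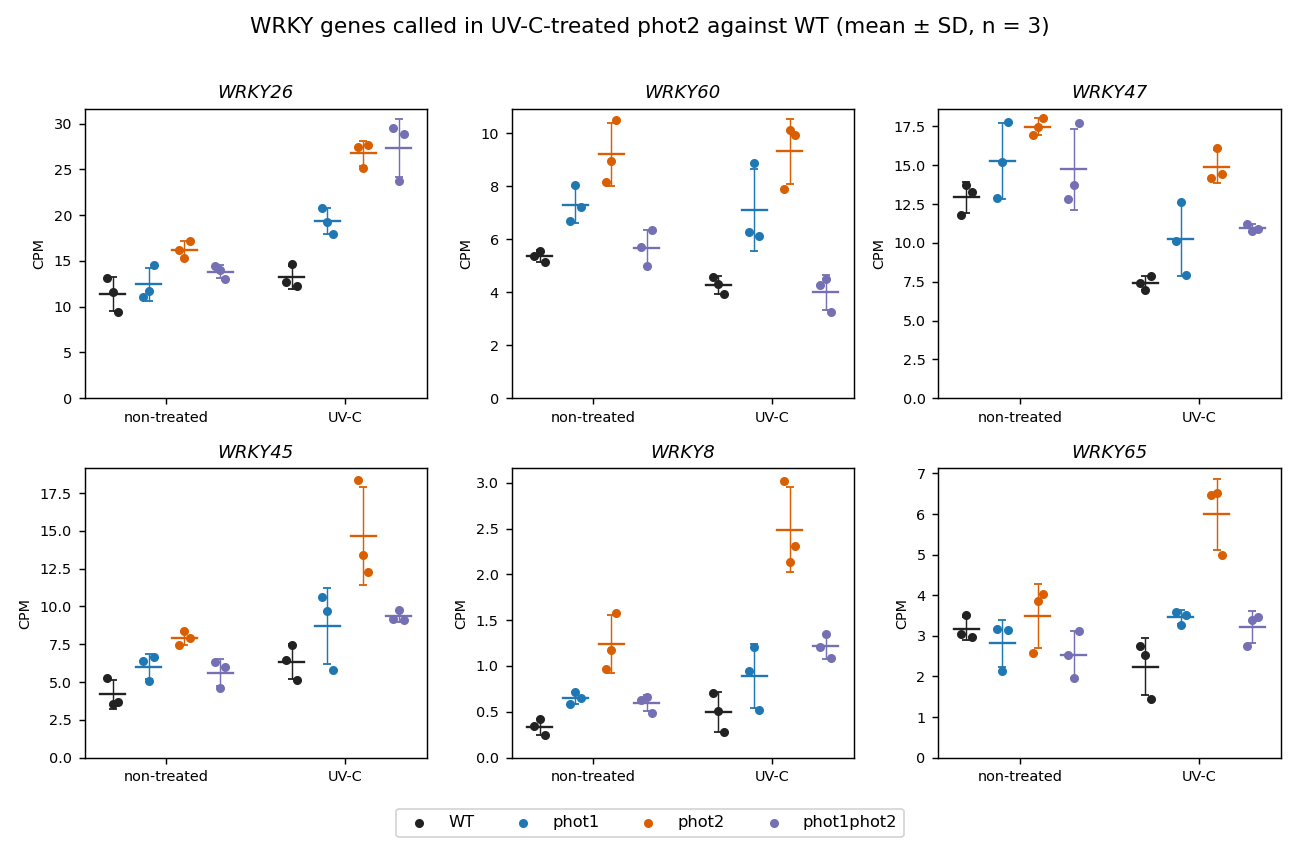
CPM (vertical axis) of the 6 WRKY genes called in UV-C-treated *phot2* against WT, in 4 genotypes and 2 treatments; points are libraries, bars are mean ± SD (n = 3). In each panel the 3 UV-C libraries of *phot2* lie above the 3 of WT, and *WRKY26* is at 27.4 ± 3.17 CPM in UV-C-treated *phot1phot2* and 26.8 ± 1.37 CPM in *phot2*.

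A list of 23 partners and outputs of WRKY factors was read alongside, of which 21 were tested. The list was chosen with earlier results of these data known, so its counts are descriptive. Beside the counts of each class, 6.88% of all tested genes rose after UV-C in WT, 6.37% in *phot1*, 7.9% in *phot2* and 7.2% in *phot1phot2*. Alternatives of processing are given for the members only. Among 8 genes of the MPK cascade, *MPK3*, the kinase that phosphorylates WRKY33, and *MKK4*, a kinase that activates MPK3 and MPK6, rose after UV-C in all 4 genotypes. *MPK3* went from 59.9, 78.5, and 62.2 CPM to 462, 434, and 454 CPM in WT (log2FC 2.75 (SE 0.12), adjusted p = 8.82e-14), and *MKK4* had log2FC 1.53. *MPK6*, which shares substrates with MPK3, was not called (log2FC −0.14 (SE 0.07), adjusted p = 0.0995), nor were *MPK4*, *MEKK1*, *MKK1* and *MKK2* in any genotype, and *MKK5* was called in *phot1* only (log2FC 1.15; interaction 0.25, adjusted p = 0.801). Of 4 tested VQ-protein genes, 3 rose in all genotypes: *SIB1*, whose product binds WRKY33, *MKS1*, whose product links WRKY33 to MPK4, and *JAV1*, a repressor of jasmonic acid-dependent defense. *SIB1* had the largest change, from 2.22, 2.88, and 1.76 CPM to 96.7, 87.9, and 94.9 CPM in WT (log2FC 5.34 (SE 0.19), adjusted p = 6.3e-15). In *phot2* its log2FC was smaller (4.02; interaction log2FC −1.32 (SE 0.26), adjusted p = 0.00624), with a higher level without treatment (4.05, 3.97, and 5.99 CPM; log2FC 1.02 (SE 0.22), adjusted p = 0.00668). *MKS1* and *JAV1* had log2FC 2.29 and 2.97 in WT, and *VQ4* was not called (0.39).

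Of the 9 tested genes with W-box promoters that WRKY factors are known to bind, only *ACS6*, an ethylene synthesis gene, rose in all genotypes. It was at 10.3, 25.4, and 6.21 CPM in non-treated WT and 69.9, 72.2, and 67.8 CPM after UV-C (log2FC 2.32 (SE 0.38), adjusted p = 3.15e-05), with non-treated replicate 2 high as for *WRKY40* and *WRKY33*. *FRK1*, a flagellin-induced receptor kinase gene, rose in *phot2* (log2FC 1.77) and *phot1phot2* (1.76) but not in WT (log2FC 1.36 (SE 0.43), adjusted p = 0.0126), and the differences from WT of 0.41 (adjusted p = 0.82) and 0.40 (adjusted p = 0.725) did not pass. It was higher in *phot2* than in WT under both treatments, at 1.64, 2.68, and 4.26 CPM against 0.272, 0.522, and 0.732 CPM without treatment (log2FC 2.5 (SE 0.37), adjusted p = 0.000253) and at 10.8, 10.6, and 7.73 CPM against 1.83, 1.12, and 0.882 CPM after UV-C (log2FC 2.91 (SE 0.35), adjusted p = 6.29e-06). *ACS2* was also higher in treated *phot2* (log2FC 3.60 (SE 0.85), adjusted p = 0.00535), at 56, 12 and 33 reads against 2, 2 and 4 in treated WT. The WT counts lay near the floor of 3 reads, so the size of this difference is uncertain. *PAD3* and *CYP71A13* of camalexin synthesis, *ICS1* of salicylic acid synthesis, *PR1*, *PHO1* and *PHT1;1* were not called after UV-C in any genotype, and *SAG12* and the VQ gene *SIB2* did not pass the count limit.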

How the data were processed

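Poly-A RNA of 24 rosette samples was sequenced as stranded libraries on a HiSeq instrument. The authors aligned reads with STAR 2.5.2b and deposited unnormalized read counts per gene, made with featureCounts (Subread 1.6.2) on Araport11 exons without strand or multi-mapping reads. Groups came from the sample labels, and all 24 count columns were used. Tests used edgeR 4.0.16 under R 4.3.3 (TMM scaling, estimateDisp, glmQLFit, glmQLFTest, 1 model of 8 groups, 13 contrasts). DESeq2 1.42.0, edgeR's likelihood ratio test named by the authors, other scalings, count limits, sample subsets, a replicate block and leaving out each library were the alternatives. CPM are TMM-scaled, and SE is the log2FC over the square root of F. A floor of 3 reads covers counting error only. The fit was tested on simulated data. With 3 against 3 libraries an exact permutation test cannot go below 0.1. The members and lists were chosen with earlier results of these data known. Every member is named. Values per library are given for the 10 members with the largest changes in WT after UV-C and those called against WT in any mutant or in any interaction. Called partners are named.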

Additional observations from a re-analysis of the deposited data

Results flagged for a closer look

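The UV-C response of *WRKY70* differed between *phot2* and WT (interaction log2FC −1.38, adjusted p = 0.00511) and between *phot1phot2* and WT (−1.22, adjusted p = 0.00498), by edgeR's interaction term with Benjamini-Hochberg adjustment. That of *SIB1* differed between *phot2* and WT (−1.32, adjusted p = 0.00624). The alternatives given below cover the members only, and none is given for *SIB1*. For each gene the 3 mutant libraries were above the 3 WT libraries without treatment. The rule for single outlying samples was not applied, since every group has 3.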

How the results depend on the processing

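The counts of members called after UV-C moved by less than 1.5 times under every alternative: leaving out a library gave 13 to 15 in WT, 13 to 14 in *phot1*, 12 to 18 in *phot2* and 15 to 17 in *phot1phot2*. The small counts between genotypes moved more. Leaving out a library gave 0 to 1 in non-treated *phot1*, 2 to 5 in *phot2* and 0 to 2 in *phot1phot2*, 0 to 0, 5 to 8 and 0 to 2 after UV-C, and 0 to 0, 0 to 2 and 0 to 2 for the interactions. Fitting only the groups compared gave 0 calls in non-treated *phot1* and 0 in *phot2*, 1 in treated *phot1phot2* and 2 in the *phot1phot2* interaction. In non-treated *phot1phot2*, the likelihood ratio test called 1, DESeq2 2 and RLE scaling 1. Upper quartile scaling called 1 in treated *phot1phot2*, where *WRKY26* fell under the limit on size (log2FC 0.99). The likelihood ratio test called 2, 6 and 2 members in the interactions of *phot1*, *phot2* and *phot1phot2*, and DESeq2 called 3 in that of *phot2*. Of 74 called values of members, 55 held under every alternative, 19 lost the call in at least 1, and 0 changed sign. Besides the losses given with the results, fitting only the groups compared ended the UV-C calls of *WRKY38* in WT (adjusted p = 0.0139) and of *WRKY75* and *WRKY8* in *phot1phot2* (0.0266 and 0.011), and the call of *WRKY8* in treated *phot1phot2* (0.0166). The likelihood ratio test put *WRKY11* in *phot1* after UV-C (log2FC 0.98) and *WRKY18* in non-treated *phot2* (0.86) under the limit on size. Without a count limit *WRKY38* (adjusted p = 0.0109) and *WRKY8* (log2FC 0.99) lost the UV-C call in *phot2*. The cause was not tested. RLE and upper quartile scaling moved the median of all genes by at most 0.0582 on the log2 scale.

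By the replicate numbers of the sample titles, 84 same-numbered pairs of samples correlated at −0.181 to 0.428 (median 0.0215), and 23 exceeded 0.1. The 168 different-numbered pairs had a median of −0.0061. The library names carry other numbers, from 1 to 5, and with these 14 of 51 same-numbered pairs exceeded 0.1 (median 0.0555). The median of the 201 different-numbered pairs was −0.0139. How many different-numbered pairs exceeded 0.1 was not computed, and whether either numbering pairs the samples was not tested. With a replicate block on the title numbers, 15, 13, 14 and 17 members were called after UV-C and 3 in non-treated *phot2*, where *WRKY18* was lost (adjusted p = 0.0115); *WRKY8* also lost its UV-C call in *phot2* (log2FC 0.99). A block on the numbers of the library names, chosen after seeing the data, gave 14, 13, 14 and 17 after UV-C, where *WRKY8* in *phot2* was lost (log2FC 0.94). It gave 0 in non-treated *phot1* (*WRKY70*, adjusted p = 0.0144), 3 in *phot2* (without *WRKY18*, adjusted p = 0.0136) and 1 in *phot1phot2* (*WRKY70*), 0, 7 and 3 after UV-C, and 2 in the *phot2* interaction (*WRKY54* and *WRKY70*). Genes with few reads, such as *WRKY38* and *WRKY51*, limit what this depth can show.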
